A study of Mus musculus with 2 samples.

Results

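Mir221 and Mir222 are neighbouring microRNA (miRNA) genes of the X chromosome whose mature products share 1 seed, the bases near the 5′ end with which a miRNA finds its targets. They were taken by gene name from the GENCODE M21 annotation, which gave 2 of the 2202 miRNA genes in the count tables. The tables come from microRNA-seq of total RNA from the adrenal gland, the organ that joins a steroid-producing cortex to a catecholamine-secreting medulla. The animals were female B6CASTF1/J mice, a first-generation cross of a laboratory strain with a wild-derived one, 36 days old and given no treatment that the labels name. The 2 libraries form 1 group and are labelled biological replicates 1 and 2. The labels number the females separately but give both the same donor identifier, so the spread between libraries may not be a spread between animals.

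A miRNA is cut from a folded hairpin and guides the silencing complex to messages that carry a match to its seed, which are then repressed. miR-221 and miR-222 are made from 1 primary transcript and are known from endothelial cells, smooth muscle and blood progenitors. Their best known targets are Kit, the receptor for stem cell factor, and Cdkn1b, an inhibitor of cyclin-dependent kinases that holds cells out of division. Through these targets the family is known both for restraining Kit-dependent cells and for favouring growth.

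Both hairpins lie on the minus strand of the X chromosome in mm10. Mir221 (ENSMUSG00000065422.1) is at chrX:19146294-19146388 and Mir222 (ENSMUSG00000065471.1) is at chrX:19146893-19146971, 504 bases apart and within 678 bases in all. Mir222 is the upstream member in the direction of transcription. GENCODE M21 places no other gene over either hairpin on either strand, so both are intergenic there. The nearest gene, the noncoding Gm14636 on the same strand (chrX:19156981-19167241), has its nearer edge, the 3′ end, 10009 bases from Mir222. The nearest protein-coding genes are 332448 bases away at higher coordinates (Tex13c3) and 684896 bases away at lower coordinates (4930578C19Rik).

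The mature sequences show what the members share and where they part. They are taken from RefSeq's GRCm38.p6 table, which matched 2 of the 2 genes, and the seed (bases 2 to 8) is in capitals.
mmu-miR-221-3p: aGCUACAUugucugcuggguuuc
mmu-miR-222-3p: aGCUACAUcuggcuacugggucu
mmu-miR-1928: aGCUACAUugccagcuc
mmu-miR-221-5p: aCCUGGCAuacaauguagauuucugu
The 3p strands of the members are identical over their 8 leading bases and at 11 of 23 positions in all. Counted from the 5′ end, miR-221-3p and miR-222-3p differ by U9C, G10U, U11G, C12G, U13C, G14U, C15A, U16C, G17U, U20G, U22C and C23U, the miR-221-3p base first. Among the mature miRNAs of that table, 1 further miRNA has this seed, miR-1928 of chromosome 1, which is identical to miR-221-3p at 14 of 17 positions. The 5p strand of Mir221 has another seed, which no other mature miRNA of the table shares.

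The hairpins show where these strands sit, with the listed mature strands in capitals.
Mir221: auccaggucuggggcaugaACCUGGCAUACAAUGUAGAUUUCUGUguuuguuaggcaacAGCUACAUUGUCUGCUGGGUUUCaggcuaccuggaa
Mir222: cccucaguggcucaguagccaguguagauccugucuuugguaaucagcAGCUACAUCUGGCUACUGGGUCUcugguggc
The longest stretch that the hairpins have in common is 9 bases, and neither shares more than 12 with any other miRNA hairpin of GENCODE M21. Reads with more than 1 mapping place were set aside in these tables, and 20 shared bases is the length used below to mark genes whose counts are uncertain for that reason. Neither member is among them. The counts are per gene, so reads of the 5p and 3p strands cannot be told apart.

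The letters ATGTAGC, the complement of the shared seed, occur in the 3′ untranslated regions (UTRs) of both textbook targets. The sites show the match in capitals, read on the transcript strand of GENCODE M21 and given as 24 bases each.
Cdkn1b, chr6:134924415-134924438: cctctaaaagcattggATGTAGCa
Kit, chr5:75654976-75654999: taatgatgggagatatATGTAGCa
Kit, chr5:75656507-75656530: ttttgtaaatattgaaATGTAGCa
The Cdkn1b match begins at base 198 of a 3′ UTR of 1280 bases (transcript Cdkn1b-201). The Kit matches begin at bases 447 and 1978 of a 3′ UTR of 2177 bases (Kit-201). An A follows the match in all 3 sites, opposite base 1 of the miRNA. Of the 6935 genes with a 3′ UTR of at least 1280 bases, 9.29% hold ATGTAGC in the leading 1280 bases. Of the 3648 genes with at least 2177 bases, 16.2% hold it at least 1 time in the leading 2177 and 1.37% at least 2 times. The search covered the transcript strand alone, and a match is a description of the letters. No messenger RNA was measured, so nothing here bears on the levels of Kit or Cdkn1b.

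Mir221 lay well above the median detected miRNA gene of the gland, and Mir222 lay close to that median. Levels are given in CPM: sense reads of the gene per 1000000 reads counted on the sense strand of any miRNA gene in that library. A read spans a mature miRNA, so counts were not divided by length. The sense counts were 5397603 in replicate 1 and 3029977 in replicate 2, 38.6% and 40.2% of all reads. Mir221 had 3457 counts in replicate 1, or 640 CPM (95% Wilson interval 619 to 662), and 3302 counts in replicate 2, or 1090 CPM (1053 to 1128). Mir222 had 702 counts in replicate 1, or 130.1 CPM (121 to 140.0), and 507 in replicate 2, or 167 CPM (153 to 183). Both genes were higher in replicate 2, and for neither did the intervals of the libraries overlap. These intervals cover counting error only, and reads without molecular identifiers are not independent molecules. The means were 865 ± 318 CPM for Mir221 and 149 ± 26.4 CPM for Mir222 (SD, n = 2). All reads of both genes were on the sense strand. The antisense count was 0 in each library, and counting without regard to strand gave the same 3457, 3302, 702 and 507 reads.

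miR-1928, the other miRNA with this seed, had 0 counts in both libraries. A count of 0 still allows a level of 0.556 CPM (replicate 1) or 0.990 CPM (replicate 2). Among counted reads the seed was therefore carried by the pair on the X chromosome. Counts of whole genes may include reads of miR-221-5p, which has another seed. For Mir222 the RefSeq table lists no 5p strand, but reads of that arm of the hairpin would be counted too. Whole-gene counts thus give only an upper limit for reads with the shared seed. Summed over both genes they were 771 CPM in replicate 1 and 1257 CPM in replicate 2. That sum was 0.101% ± 0.0344 of the sense miRNA counts (SD, n = 2).

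In the order of mean CPM over all miRNA genes Mir221 was at 82 and Mir222 at 161. Mir221 stood at 100 in replicate 1 and at 61 in replicate 2, while Mir222 stood at 176 and 148. The mean of Mir221 was 6.64 times the median of the 339 detected genes, those that reached 10 counts in each library, and that of Mir222 was 1.14 times this median. The pooled coefficient of variation between the libraries, from edgeR's common dispersion over all genes, was 41.6%. Under that spread the geometric means of 2 genes have to differ by more than 2.26-fold to be ordered. By this limit 53 detected genes were above Mir221, 226 were below it and 59 could not be ordered against it. For Mir222 the numbers were 118 above, 142 below and 78 not ordered.

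The nearest genes in the order could not be told from the members. Next to Mir221 were Mir181c at 896 ± 256 CPM and Mir671 at 879 ± 406 above it, and Mir376a at 854 ± 239 and Mir487b at 851 ± 272 below it. In replicate 1 Mir181c and Mir671 were above Mir221, and in replicate 2 both were below it. Next to Mir222 were Mir770 at 157 ± 24.4 CPM, Mir668 at 156 ± 120, Mir350 at 146 ± 45.9 and Snord43, which GENCODE M21 annotates as a miRNA gene, at 145 ± 68.5. All 4 were above Mir222 in replicate 1 in this order of levels (174, 241, 178 and 193 CPM) and all 4 were below it in replicate 2 (140, 71.3, 114 and 96.4 CPM).

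**Figure D1:**
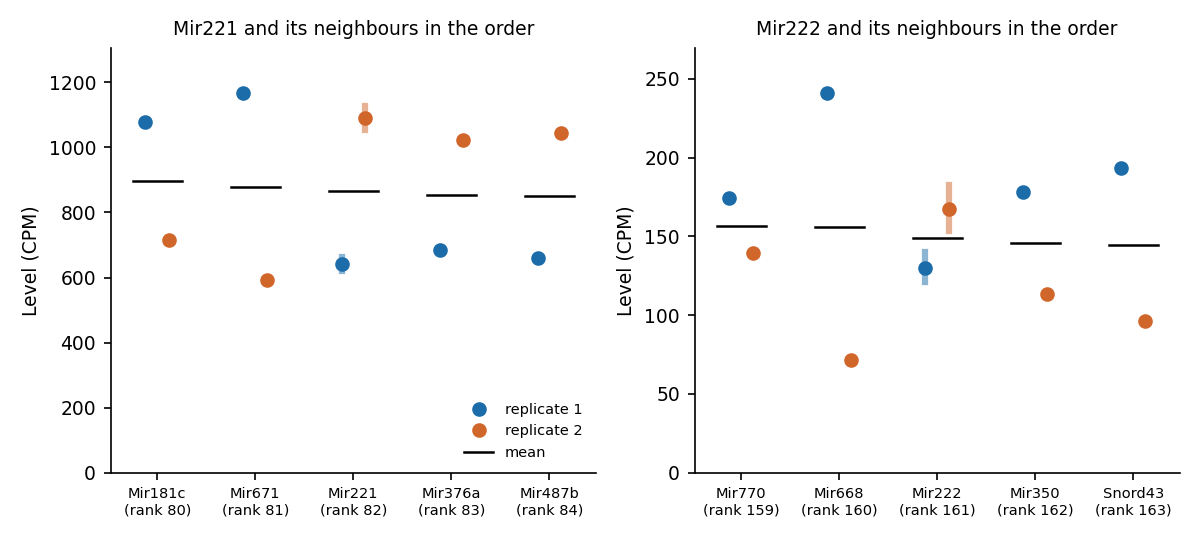
Level in CPM of Mir221 (left) and Mir222 (right) beside the 2 genes above and the 2 below each in the order of mean level. Points are the libraries, black lines their mean, and the pale bars on the members 95% Wilson intervals for counting error. Mir221 had 640 and 1090 CPM and Mir222 130.1 and 167 CPM in replicates 1 and 2, and the means of the neighbours lie inside the range of each member's libraries.

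**Figure D2:**
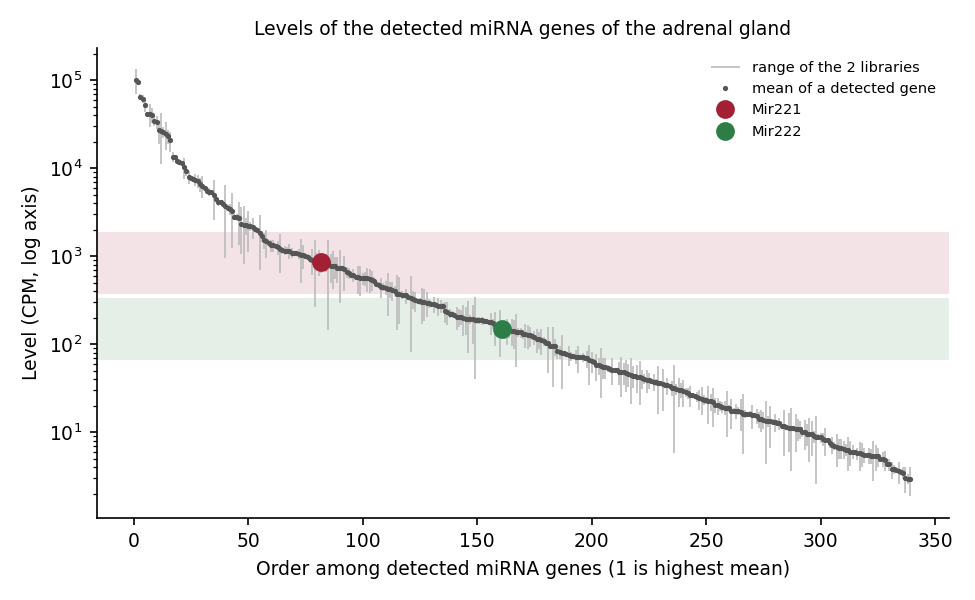
Mean level in CPM (log axis) of the 339 detected miRNA genes in order, with the range of the libraries as grey lines. The shaded bands reach 2.26-fold to either side of the geometric means of Mir221 and Mir222. The bands do not meet, and 59 and 78 other genes have geometric means within them.

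Mir221 exceeded Mir222 in both libraries by more than the spread allowed. The ratio of Mir221 to Mir222 was 4.92 in replicate 1 and 6.51 in replicate 2, and their geometric means differed by 5.66-fold against the limit of 2.26-fold. Mir222 held 16.9% of the pair's counts in replicate 1 (95% Wilson interval 15.8 to 18.0%) and 13.3% in replicate 2 (12.3 to 14.4%). Its share was thus a little larger in replicate 1. The odds of Mir222 against Mir221 were 1.32-fold higher in replicate 1 than in replicate 2 (95% interval 1.17 to 1.50), and the 2 ratios differed by more than counting error (two-sided Fisher's exact test, p = 8.97e-06). On the log2 scale the ratio of Mir222 to Mir221 was -2.50 ± 0.29 (SD, n = 2). A ratio within a library needs no scaling between libraries. The yield of library preparation differs between miRNA sequences, so these are ratios of reads and not of molecules.

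The members share a primary transcript, so their ratio was set beside those of other neighbours. In 98 cases, a miRNA gene with 100 counts or more in the libraries together lay within 10 kb of the next such gene on 1 strand. The ratio differed between libraries by Fisher's exact test with Benjamini-Hochberg adjustment in 84 of them (85.7%), Mir221 with Mir222 among them (adjusted p = 1.63e-05). A call is therefore the usual outcome for such neighbours. The median fold between neighbours was 3.56, against 5.66 for the members, and 39 of the 98 were more unequal. The ratio moved between the libraries by a median of 1.64-fold over the 98, against 1.32-fold for the members, and 29 moved less. Some genes stand in more than 1 of the 98, and 35 hold a gene that shares at least 20 bases with another hairpin. Of the 98, 43 lie on chromosome 12, in the Dlk1-Dio3 locus, so the medians and numbers are not those of independent clusters.

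A shared seed within a cluster was found in 20 of the 91 cases for which the RefSeq table held both genes. A seed counted as shared if any listed mature strand of 1 gene had it in common with any of the other. The counts do not separate strands, so the strand with the shared seed need not be the one that was mostly read. The median fold between such relatives was 3.76, and 8 of the 20 were more unequal than Mir221 and Mir222. Mir29a exceeded Mir29b-1, whose family represses collagen messages, by 347-fold. Mir379 and Mir411 of the Dlk1-Dio3 locus differed by 1.11-fold. Mir29b-1 and Mir411 share at least 20 bases with another hairpin, so their counts are uncertain. Among the 8 more unequal cases the same holds for Mir29b-2 and Mir29c, which are neighbours, and for Mirlet7f-1, Mirlet7c-2 and Mir30c-1. Of those 8, only Mir212 with Mir132, Mir34c with Mir34b and Mir93 with Mir106b hold no such gene. Between the libraries the ratio of relatives moved by a median of 1.47-fold, and 8 of the 20 moved less than that of the members. The ratio of Mir106b to Mir93, from a cluster tied to cell proliferation, moved by 5.17-fold. These relatives were named after their values were seen.

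**Figure D3:**
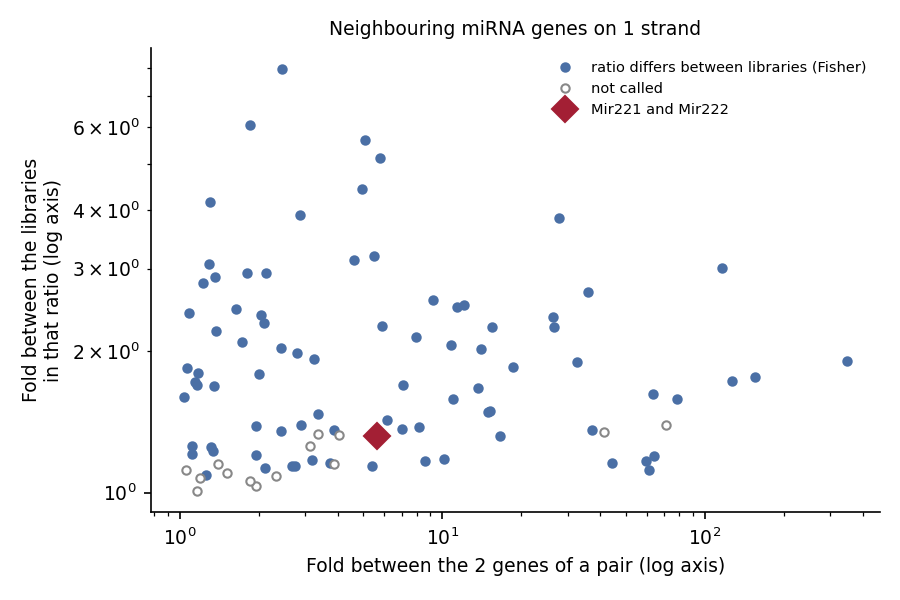
Each point is a miRNA gene with the next one within 10 kb on the same strand, 98 in all. The x axis is the fold between the genes (mean of the libraries on the log2 scale) and the y axis the fold by which that ratio differed between the libraries, both on log axes. Mir221 with Mir222 lies at 5.66 and 1.32, to the right of the median of 3.56 and below the median of 1.64.

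Both members were higher in replicate 2, the shallower library. The ratio of replicate 1 over replicate 2, scaled by TMM, was -1.07 on the log2 scale for Mir221, or 2.10-fold higher in replicate 2. For Mir222 it was -0.66, or 1.59-fold higher in replicate 2. Against counting error alone both were called by an exact binomial test, two-sided and adjusted by Benjamini-Hochberg (adjusted p = 5.37e-197 for Mir221 and 2.50e-14 for Mir222). The same test called 58.5% of the 434 genes whose libraries together held 10 counts or more, 30.2% higher in replicate 1 and 28.3% higher in replicate 2. A call by this test is thus close to the usual outcome in these libraries and says nothing particular about the members. With the pooled spread as the error in edgeR's exact test, neither member was called (adjusted p = 0.999 for both, unadjusted p = 0.223 for Mir221 and 0.447 for Mir222). By that test 0 of the 434 genes were called after adjustment and 24 (5.53%) had an unadjusted p below 0.05. edgeR's likelihood ratio test with the same spread also called 0, and 34 (7.83%) had an unadjusted p below 0.05. Under the pooled spread 95% of ratios between 2 libraries would lie within 3.16-fold, and both members did. That spread was estimated from the same 2 libraries that the test compares, so the lack of a call says little of the members. The differences were larger than counting error, and they were not held against an independent spread between libraries.

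The size of these ratios depends on the scaling. The median log2 ratio of the 434 genes was 0.08 with TMM and 0.37 with total sense counts, and the share of calls higher in replicate 1 was 51.6% and 69.5%. With total counts Mir221 was at -0.77 and Mir222 at -0.36, so both remained higher in replicate 2. The shift applies to every gene, so small ratios and calls given below can change direction with the scaling. GC-rich hairpins tended to higher ratios. Over 284 genes Spearman's rho was 0.348, a description only, since genes of 1 library share its depth and preparation. The hairpins of Mir221 and Mir222 have 47.4% and 54.4% GC, to either side of the median of 50.0%. With that trend removed the ratios were -0.98 for Mir221 and -0.78 for Mir222, closer to each other.

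**Figure D4:**
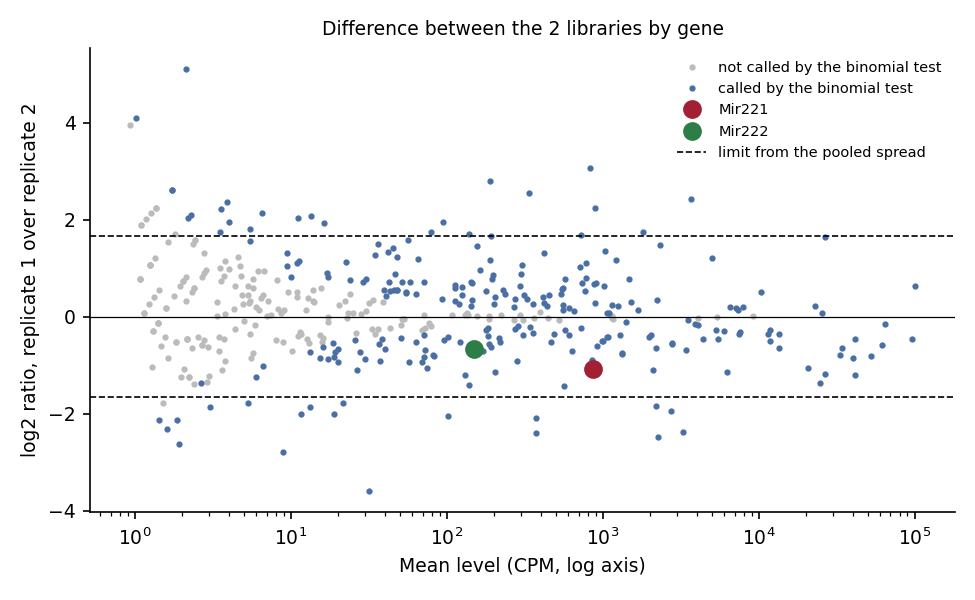
log2 ratio of replicate 1 over replicate 2 (TMM) against mean level in CPM (log axis) for the 434 genes tested. Blue points were called by the binomial test, and dashed lines mark the 3.16-fold limit of the pooled spread. Mir221 at -1.07 and Mir222 at -0.66 lie below 0 and inside the dashed lines.

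The genes most alike to each member in level and in the difference between libraries were found by distance. Likeness was measured as the Euclidean distance in log2 mean CPM and log2 ratio between the libraries, over 284 genes (100 counts or more) and only 2 libraries. Nearest to Mir221 were Mir487b (659 and 1044 CPM in replicates 1 and 2, distance 0.106) and Mir376a (685 and 1023 CPM, 0.189), both from the imprinted Dlk1-Dio3 cluster, and then Mir31 of chromosome 4 (824 and 1011 CPM, 0.478). Nearest to Mir222 were Mir101a (148 and 195 CPM, 0.209), the X-linked Mir374b (112 and 132 CPM, 0.315) and Mir196a-2 of a Hox cluster (170 and 202 CPM, 0.341). All 6 were higher in replicate 2, which the measure itself favours. Mir487b, Mir101a, Mir374b and Mir196a-2 share at least 20 bases with another hairpin, so their counts are uncertain.

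On the X chromosome 35 of 142 annotated miRNA genes were detected, and Mir221 was at 9 and Mir222 at 16 among them by mean level. The leading genes were Mir322 at 20589 ± 7447 CPM, of a cluster known for growth control, Mir652 at 7963 ± 1929, and Mir98 and Mirlet7f-2 of the let-7 family at 5500 ± 421 and 4089 ± 282. Mir361 at 2033 ± 78.9 and Mir351 at 1507 ± 443 followed. X-linked genes held 4.75% ± 0.505 of the sense counts, and Mir221 with Mir222 held 1.75% of these X-linked counts in replicate 1 and 2.46% in replicate 2. Of the 37 X-linked genes tested, replicate 2 was called the higher in 15 and replicate 1 in 10, beside 28.3% and 30.2% of all genes tested. Their median log2 ratio was -0.21, against 0.08 for all genes tested. The directions depend on the TMM scaling. Mirlet7f-2 and Mir501 were called higher in replicate 2, but in CPM they were higher in replicate 1 (4289 against 3889 and 353 against 333). Mir322 had a log2 ratio of -1.06, next to the -1.07 of Mir221.

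Vascular miRNAs, among which the pair is usually counted, were taken as a list of 19 genes, among them some of the most abundant of the gland. The list held 33.9% ± 2.99 of the sense counts. Its genes were not measured by cell type, so this is not a share of reads from vessels. The lists overlap. Mir21a, Mir92-1 and Mir155 also stand in the list for promoting the cell cycle, and Mir24-1 and Mir24-2 in that for Cdkn1b. All 19 genes of the vascular list were detected, and 12 had a higher mean than Mir221 and 16 a higher mean than Mir222. Of the 12 above Mir221, Mir27a, at 1.28 times the geometric mean of Mir221, lay within the 2.26-fold limit and could not be ordered against it. The list was led by Mir126a of endothelial cells at 101247 ± 45201 CPM, Mir10a at 52400 ± 12656, Mir143 of smooth muscle at 41484 ± 17671 and Mir23a at 40550 ± 10914. The geometric mean of Mir126a was 115 times that of Mir221 and that of Mir143 was 47.3 times. Between the libraries 6 vascular genes were called higher in replicate 1, 12 higher in replicate 2 and 1 was not called, beside 30.2% and 28.3% of all genes tested. All of the list but Mir126b reach 100 counts over both libraries. With that minimum 131 and 99 of 284 genes were called in these directions, so frequent calls in the list are not particular to it. The median log2 ratio was -0.41, against 0.08 for all genes tested. In this list 7 genes, Mir23a, Mir23b, Mir27a, Mir27b, Mir24-1, Mir24-2 and Mir92-1, share at least 20 bases with another hairpin.

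Mir126a and the smooth muscle markers were called in opposite directions by the binomial test. Mir126a had 133209 CPM in replicate 1 and 69285 in replicate 2, whereas Mir143 had 28989 and 53980 and its neighbour Mir145a had 1251 and 5257. The other endothelial gene, Mir126b, had 5.37 and 4.62 CPM and was not called by the binomial test (adjusted p = 0.903). Mir126a, at a log2 ratio of 0.64, and Mir143, at -1.20, lay within the 3.16-fold range of the pooled spread. Mir145a, at -2.37, or 5.18-fold higher in replicate 2, lay outside it. With the pooled spread as the error Mir145a was not called in edgeR's exact test (adjusted p = 0.396). Summed, the 2 endothelial genes held 13.3% and 6.93% of the sense counts, and the 2 genes of smooth muscle and pericytes held 3.02% and 5.92%. Mir221 and Mir222 were higher in the library in which the smooth muscle genes were higher and Mir126a lower. The part of these cell types in the levels of the pair was not tested. In whole glands fewer cells of a type and less RNA per cell cannot be told apart. Of the other markers, 3 of 3 red-cell genes were called higher in replicate 1 (0.121% and 0.0576% of counts) and 5 of 5 white-cell genes higher in replicate 2 (0.193% and 0.262%), beside 30.2% and 28.3% of all genes tested. The white-cell calls rest in part on the TMM scaling. In CPM Mir342 was slightly higher in replicate 1 (583 and 568) and Mir155 nearly equal (354 and 364). Mir142, Mir150 and Mir223 were higher in replicate 2 in CPM too. The 4 endocrine genes, all detected, held 3.17% and 2.54%, with 1 called higher in each library and 2 not called. The liver gene Mir122 held 0.150% and 0.0146%. The 7 genes of epithelia, 4 of them detected, held 0.0873% and 0.373%, nearly all of it from Mir203 (822 and 3691 CPM), while Mir200b had 14.3 and 4.62 CPM. Of the 6 epithelial genes tested 1 was called higher in replicate 1, 2 were higher in replicate 2 and 3 were not called. No gene of these lists was at 0 in both libraries.

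miRNAs tied to cell division lay at levels on both sides of the pair. In the list of those known for promoting the cell cycle, 9 of 11 were detected and 4 had a higher mean than Mir221. These were Mir21a at 26772 ± 11071 CPM, Mir93 at 3415 ± 649, Mir17 at 2778 ± 353 and Mir20a at 1328 ± 292. Mir20a, at 1.57 times the geometric mean of Mir221, lay within the 2.26-fold limit and could not be ordered against it. By the binomial test 4 of the 11 were higher in replicate 1, 6 were higher in replicate 2 and 1 was not called, with a median log2 ratio of -0.34. Of all genes tested 30.2% and 28.3% were called in these directions, with a median of 0.08. In the list of those known for restraining it, 9 of 9 were detected and 5 had a higher mean than Mir221. In replicate 2 only Mir34c of these 5 was above Mir221 (3278 against 1090 CPM). Mir195a, Mir15a, Mir16-1 and Mir15b were below it there (959, 1058, 704 and 498 CPM). Mir15b and Mir16-1, at 1.06 and 1.16 times the geometric mean of Mir221, lay within the 2.26-fold limit and could not be ordered against it. The leading genes were Mir195a at 3666 ± 3828 CPM, Mir15a at 2335 ± 1807, Mir34c, a gene induced by p53, at 2201 ± 1524 and Mir15b at 1031 ± 753. Of this list 7 were called higher in replicate 1, and the other 2, Mir34b and Mir34c, were higher in replicate 2. The median log2 ratio was 0.63. The counts of Mir16-1, 1 of the 5 above Mir221, and of Mir16-2, and those of Mir92-1 and Mir19b-1 in the promoting list, are uncertain, since these genes share at least 20 bases with another hairpin. The ratios of Mir221 and Mir222, at -1.07 and -0.66, had the sign of the promoting list's median and not that of the restraining list, and nothing particular to the lists is drawn from 2 libraries of 1 group.

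Other miRNAs reported to act on the same targets were measured beside the pair. Of the 7 listed for Kit, all were detected and 4 had a higher mean than Mir222. Mir34a had 766 ± 303 CPM, above Mir221 in replicate 1 (980 against 640 CPM) and below it in replicate 2 (552 against 1090 CPM). Mir137 had 469 ± 47.7 CPM, Mir193a 448 ± 59.3 and Mir193b 235 ± 87.6. Mir34a, at 0.881 times the geometric mean of Mir221, lay within the 2.26-fold limit and could not be ordered against it, and the same held for Mir137 and Mir193a at 0.560 and 0.533 times. Of the list 2 were called higher in replicate 1, 3 higher in replicate 2 and 2 were not called, beside 30.2% and 28.3% of all genes tested, with a median log2 ratio of -0.03. Of the 4 listed for Cdkn1b, 3 were detected, Mir24-2 at 194 ± 97.7 CPM, Mir181a-1 at 95.9 ± 8.08 and Mir24-1 at 43.5 ± 17.1. Of the 4, Mir181a-1 was called higher in replicate 2 and the other 3 higher in replicate 1, beside 28.3% and 30.2% of all genes tested, and the median log2 ratio was 0.65. All 4 share at least 20 bases with another hairpin, so reads of miR-24 and miR-181a may be missing from these counts and no order against Mir221 is drawn.

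**Figure D5:**
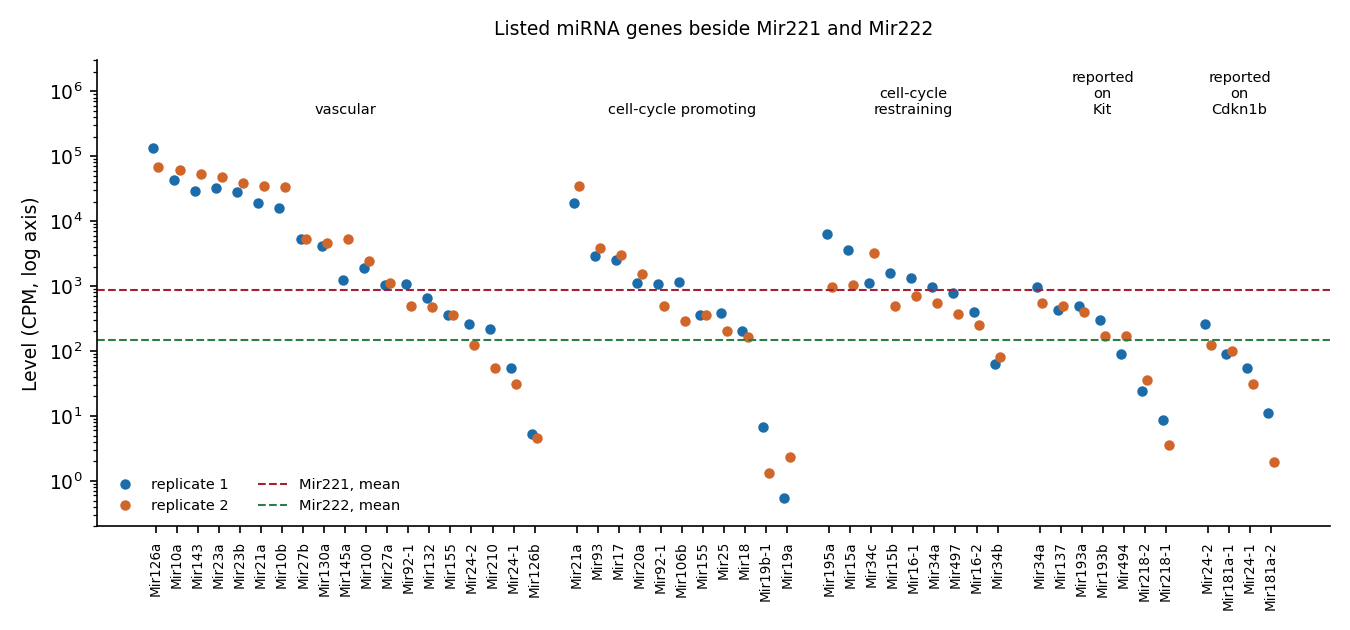
Level in CPM (log axis) of each gene of 5 lists in replicate 1 (blue) and replicate 2 (orange), with the mean levels of Mir221 (865 CPM) and Mir222 (149 CPM) as dashed lines. Of the vascular genes 12 of 19 have a mean above the upper line, and none of the genes listed for Kit or Cdkn1b does. Mir34a, listed for Kit, was above Mir221 in replicate 1 and could not be ordered against it. The counts of the genes listed for Cdkn1b are uncertain, so no order is drawn for them.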

How the data were processed

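Each deposited table gives raw counts of reads for the miRNA genes, with the mm10 assembly and GENCODE M21 annotation per the notes deposited with each library. Aligner, counting tool and adapter trimming were not given in the sources used here. The 3 count columns carry no header and were read as without strand, sense and antisense. Counted, no-feature and ambiguous reads add to the same total in each, which does not tell the strands apart. For both members the column read as antisense held 0 and the others held equal counts. The 4 summary entries that name no gene were left out: unmapped reads were 26.0% and 22.3% of the reads in replicates 1 and 2, reads at several places 28.5% and 30.6%, and reads outside miRNA genes 6.88% and 6.86%. No entry was ambiguous on the sense strand. A single count amounted to 0.185 (replicate 1) or 0.330 CPM (replicate 2).

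Ratios used TMM (edgeR 4.0.16, R 4.3.3) and a prior of 0.5 counts. Exact tests were run in scipy 1.17.1 and adjusted by Benjamini-Hochberg in statsmodels 0.14.6 over 434 genes with at least 10 counts, at 0.05. A count of 0 was limited at 3 counts. DESeq2 1.42.0 gave size factors for an alternative. The binomial step was checked on simulated data with counting noise only, which leaves out the spread between libraries. 3′ UTRs were those of each gene's lowest-numbered coding transcript.

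The members, lists and tests were chosen with earlier results of these data known. Named genes were the members, the 2 genes on each side in the order, the 3 most alike, up to 6 detected X-linked genes, seed sharers and up to 4 detected genes of each list by mean level. Names outside this rule, among them the marker genes Mir145a and Mir122 and the relatives in clusters, are given for single values.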

Additional observations from a re-analysis of the deposited data

How the results depend on the processing

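With 2 libraries of 1 group, every value rests on both. Leaving out each replicate gave 640 to 1090 CPM for Mir221, 130.1 to 167 CPM for Mir222, orders of 61 to 100 and 148 to 176, and log2 ratios of Mir222 to Mir221 of -2.70 to -2.30. Taking the pooled spread as the error ended the calls of Mir221 (-1.07) and Mir222 (-0.66), with adjusted p = 0.999 in edgeR's exact test and 0.963 in its likelihood ratio test, and left 0 genes called in place of 254 under both. That spread comes from the compared libraries themselves. The likelihood ratio test was added after seeing the data. Counting without strand raised Mir221 to 1069 CPM and Mir222 to 185 CPM, since the same counts were divided by a smaller total, and leaving out the most abundant gene gave 955 and 165 CPM. Under the other 7 settings, which were total counts, DESeq2 size factors, a prior of 5 counts, replicate 1 thinned to the depth of replicate 2, the GC trend removed, no count minimum and a minimum of 100 counts, both ratios kept their direction and their call. Counting without strand included, Mir221 ranged from -1.14 to -0.77 and Mir222 from -0.78 to -0.36. No paired analysis was possible because the samples form 1 group.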
